A study of Mus musculus with 16 samples.

Results

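The teneurin genes Tenm2, Tenm3 and Tenm4 and the neuron navigator genes Nav1, Nav2 and Nav3 held 120 of the 80585 accessible regions found across 16 ATAC-seq libraries of differentiating mouse embryonic stem cells (ESCs). Members were chosen by the deposited −log10 p of each peak and by gene position. In each library the 50000 distinct peak intervals with the highest −log10 p were kept, and an interval belonged to a gene when the nearest protein-coding transcription start site (TSS) to its summit lay within 100 kb and was that gene's. Windows of 150 bp on either side of the summits were merged over libraries, and a merged region had to be held by at least 2 libraries. Open means that a kept interval of the library covered at least 1 bp of the region, and closed that none did. Because the rule used the open state, and the fold enrichment comes from the same peaks, both are given as a description with no test. Many of the regions named below were chosen by their open state. A separation of their fold values by group is in part set by that choice.

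The libraries formed 8 groups of 2, all of B6129S6F1 background and all collected on the way from ESCs to anterior neural progenitor cells, with bFGF in the medium until day 3. Cells of 3 genotypes were taken on day 2 and on day 3: WT (wild type), MUT (Tet1 mutated by CRISPR in its catalytic domain) and KO (Tet1 knocked out by the tm1Koh allele). The TET1 protein removes DNA methylation by oxidising 5-methylcytosine, and the MUT lines keep the protein without that activity. WT cells with CHIR99021 (CHIR), a GSK3 inhibitor that activates Wnt signalling, at 3 µM, and KO cells with 5 µM of the Wnt inhibitor XAV939 (XAV), both from day 2, were taken on day 3. The 2 libraries of a group came from separately named lines. Replicate 2 of each day 2 group is marked as merged, and what was merged is not stated, so its values may not be of the named line alone. The 2 MUT lines are clones that share 1 WT parent, the line used for CHIR replicate 1. Mock-transfected clones were derived from that parent too, and the labels do not say whether the 2 untreated WT lines are among them, in which case those too would be clones of 1 line rather than independent lines. The untreated WT libraries came from another pair of lines than the CHIR libraries, so that line and treatment cannot be told apart there, whereas the same 2 KO lines gave the KO and the XAV libraries. No vehicle library is among the 8 groups.

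Teneurins are large transmembrane proteins of the cell surface that bind each other and the latrophilin adhesion receptors across cell contacts, and they guide the matching of neurons to their targets. Tenm4 is also known for roles in early embryos before gastrulation is complete. Neuron navigators are cytoplasmic proteins that ride on growing microtubule ends and take part in neurite outgrowth and cell migration. All 6 genes are long, with large introns. In chromatin, an open region marks DNA that the transposase can reach, which is typical of promoters and of distal enhancers, and an open region does not by itself say which gene it acts on.

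The 7 sequences that follow are those the results turn on, read from GRCm38.p6 (mm10 coordinates) on the plus strand as the 300 bases around the centre of each region. The first 3 overlap a differentially accessible region (DAR) that the authors deposited for KO against WT on day 3. The next 2 are the lost regions outside the DARs with the largest drop of mean fold enrichment over the libraries with a peak. The last 2 were chosen after their values were seen, 1 open in KO day 3 and CHIR libraries and 1 open in CHIR libraries with no deposited peak elsewhere. Capitals mark plain letter matches, on either strand, to the letters of TCF/LEF factors (CTTTGAT as well as CTTTGAA), of TEAD factors (GGAATG), of SOX factors (ACAATG as well as ACAAAG), of OCT factors (ATGNAAAT), of T-box factors (AGGTGTGA), of forkhead factors (TGTTTAC) and of GATA factors (AGATAA). TCF/LEF and SOX letters share the run CAAAG but no match shown overlaps another.
Nav1 region 1, chr1:135551052-135551351 (+): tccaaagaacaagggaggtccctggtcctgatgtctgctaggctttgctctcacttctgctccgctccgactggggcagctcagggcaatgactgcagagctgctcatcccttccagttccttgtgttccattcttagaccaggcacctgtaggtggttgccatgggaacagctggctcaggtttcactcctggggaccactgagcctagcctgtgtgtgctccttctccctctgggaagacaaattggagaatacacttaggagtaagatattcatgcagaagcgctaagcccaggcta
Nav1 region 2, chr1:135600009-135600308 (+): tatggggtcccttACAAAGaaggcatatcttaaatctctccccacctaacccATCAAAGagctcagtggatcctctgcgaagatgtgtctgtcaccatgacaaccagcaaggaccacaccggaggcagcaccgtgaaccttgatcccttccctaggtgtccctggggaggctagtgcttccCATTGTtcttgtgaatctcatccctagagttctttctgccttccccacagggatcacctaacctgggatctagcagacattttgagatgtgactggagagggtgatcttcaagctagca
Tenm4 region 1, chr7:96440207-96440506 (+): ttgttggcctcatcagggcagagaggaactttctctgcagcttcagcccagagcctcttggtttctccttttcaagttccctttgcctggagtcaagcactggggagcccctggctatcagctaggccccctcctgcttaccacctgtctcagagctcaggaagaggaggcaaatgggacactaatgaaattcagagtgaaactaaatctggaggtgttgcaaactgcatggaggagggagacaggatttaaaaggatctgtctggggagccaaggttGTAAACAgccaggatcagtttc
Tenm2 region 1, chr11:37153868-37154167 (+): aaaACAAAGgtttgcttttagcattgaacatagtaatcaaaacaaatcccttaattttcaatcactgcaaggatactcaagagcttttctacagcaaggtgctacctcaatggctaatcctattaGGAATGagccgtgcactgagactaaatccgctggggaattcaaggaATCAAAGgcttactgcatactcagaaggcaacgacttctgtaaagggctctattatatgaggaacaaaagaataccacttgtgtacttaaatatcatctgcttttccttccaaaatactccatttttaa
Tenm4 region 2, chr7:96120177-96120476 (+): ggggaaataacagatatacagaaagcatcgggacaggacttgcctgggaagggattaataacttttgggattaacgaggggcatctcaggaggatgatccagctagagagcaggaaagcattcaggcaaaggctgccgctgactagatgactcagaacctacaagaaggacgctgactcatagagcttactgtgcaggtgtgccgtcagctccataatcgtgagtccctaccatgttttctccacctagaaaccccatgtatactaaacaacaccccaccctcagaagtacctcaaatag
Nav2 region 1, chr7:49497160-49497459 (+): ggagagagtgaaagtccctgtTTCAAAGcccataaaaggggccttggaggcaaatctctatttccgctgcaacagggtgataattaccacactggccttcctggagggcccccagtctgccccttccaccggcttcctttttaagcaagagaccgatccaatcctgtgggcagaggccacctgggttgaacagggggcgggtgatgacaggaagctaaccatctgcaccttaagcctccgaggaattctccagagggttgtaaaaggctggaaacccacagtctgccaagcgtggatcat
Tenm4 region 3, chr7:96459025-96459324 (+): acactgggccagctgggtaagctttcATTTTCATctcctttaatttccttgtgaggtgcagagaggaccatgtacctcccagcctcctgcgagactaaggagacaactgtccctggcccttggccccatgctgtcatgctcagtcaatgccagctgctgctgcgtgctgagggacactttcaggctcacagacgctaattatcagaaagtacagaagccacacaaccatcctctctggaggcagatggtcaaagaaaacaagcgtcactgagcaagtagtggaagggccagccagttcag
A letter match is a description of the sequence and not a bound site. Nav1 region 1 and Tenm4 region 2 hold no match to any of the 7 motif families. Nav1 region 2, Tenm2 region 1 and Nav2 region 1 each hold a TCF/LEF match, and TCF/LEF proteins are the factors through which Wnt and beta-catenin act on genes.

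The 6 genes differed widely in how many regions they held. Tenm4 (chr7:96171246-96911093, plus strand) had 38, Nav2 (chr7:48908716-49610090, plus strand) had 33 and Nav1 (chr1:135434580-135607295, minus strand) had 30. Tenm3 (chr8:48227682-48843951, minus strand) had 11, Tenm2 (chr11:36006656-37235964, minus strand) had 7 and Nav3 (chr10:109681259-110456204, minus strand) had 1. A further 22 member regions were held by a single library and are outside the count of 120. The 100 kb window decides much of this for genes of such length: 25 consensus regions nearest to a Tenm2 TSS lay beyond it, as did 23 for Tenm4, 15 for Tenm3, 12 for Nav2, 10 for Nav3 and 0 for Nav1. The member nearest the edge was a Tenm4 region 99828 bp from a TSS, and the first region outside belonged to Nav2 at 100605 bp.

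Most member regions were open in some libraries and closed in others. Of the 120, 19 (15.8%) were open in all 16 libraries, where 33.6% of all consensus regions were. On day 2, 40 (33.3%) were open in all 6 libraries, where 47.2% of all consensus regions were. The mean number of open member regions was 59.5 ± 0.71 in WT, 63 ± 4.24 in MUT and 56 ± 2.83 in KO cells on day 2 (SD, n = 2 libraries). On day 3 it was 70 ± 2.83 in WT, 66.5 ± 3.54 in MUT and 58.5 ± 3.54 in KO cells (SD, n = 2 lines). With CHIR it was 72.5 ± 3.54 and with XAV 62 ± 0 (SD, n = 2 lines). On day 3 the KO libraries, with 61 and 56, lay under the WT libraries, with 68 and 72, and the XAV libraries lay between them. As a mean share of the 120, open members were 49.6% in WT, 52.5% in MUT and 46.7% in KO cells on day 2, where 64.0%, 64.5% and 63.7% of all consensus regions were open. On day 3 they were 58.3% in WT, 55.4% in MUT, 48.8% in KO, 60.4% in CHIR and 51.7% in XAV libraries, where all consensus regions stood at 63.6%, 63.7%, 62.3%, 61.6% and 64.3%. With 2 libraries in each group an exact permutation test cannot give a p under 0.33, and none was run. The 2 libraries of a group agreed in state at 77.5% to 91.7% of the member regions, least in KO day 3.

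**Figure D1:**
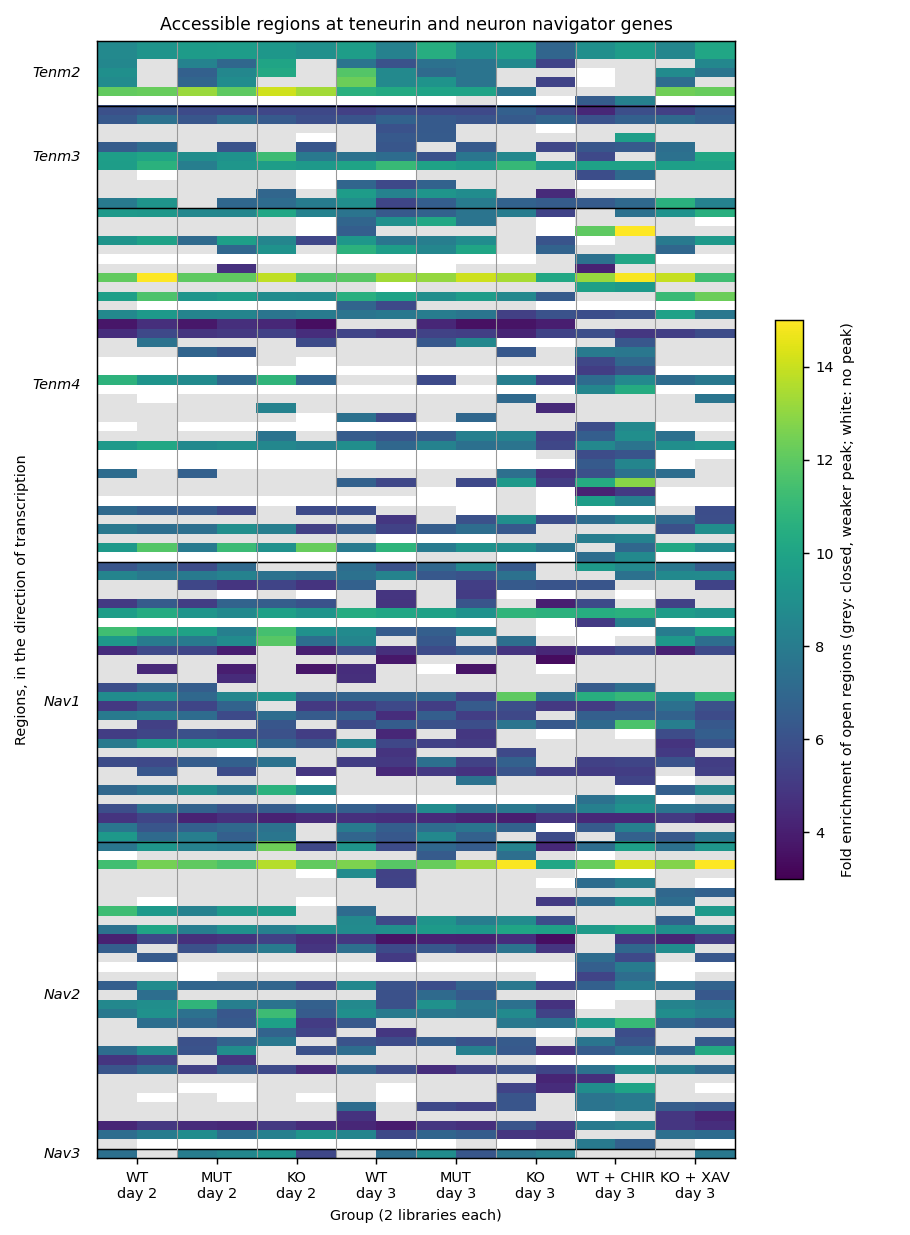
Each row is 1 of the 120 member regions, grouped by gene and ordered in the direction of transcription, and each column is 1 of the 16 libraries, in groups of 2. Colour gives the fold enrichment of open regions, grey a closed region with a weaker deposited peak and white no deposited peak. A set of Tenm4 rows is coloured in the CHIR columns alone.

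Facts of the series that bear on these values are few. The −log10 p at rank 50000 ran from 6.84 in KO day 3 replicate 2 to 21.8 in KO day 2 replicate 1, and the median fold enrichment of kept intervals from 5.88, again in KO day 3 replicate 2, to 8.57. Counts of reads are not in the lists used here, so the depth behind a fold enrichment is unknown. A region within Tet1 (chr10:62884128-62884462) was open in 10 of 10 libraries of WT and MUT lines and in 0 of 6 libraries of KO lines. Promoters of 6 epiblast marker genes were open in 5 to 6 per library, and those of 5 primitive streak markers in 4 to 5. Of 5 neuroectoderm markers, Six3 had no promoter region in any library, and the other 4 promoters were open in every library apart from 3 untreated KO libraries, with 2 and 3 open on day 2 and 3 in replicate 1 on day 3. The part of this in the KO values was not tested. Of 5 fibroblast markers, for the feeder cells removed before differentiation, 3 promoters were open in each of the 16 libraries, and Col3a1 and Postn had none. Open promoters of this kind do not sort cell types, and the makeup of the cultures was not tested.

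Tenm2, whose protein pairs with latrophilins at synapses, had 7 regions, of which 2 lay just upstream of the gene and were open in all 16 libraries. They are 599 and 1062 bp upstream of the TSS, and a single deposited interval covered both in every library, so that they share 1 fold enrichment, from 6.90 in KO day 3 replicate 2 to 10.5 in MUT day 3 replicate 1. The intronic regions of Tenm2 moved. The one with the highest mean fold enrichment (chr11:37031681-37032036) was at 12.1 and 12.2 in WT, 13.2 and 12.0 in MUT and 14.1 and 13.4 in KO libraries on day 2. On day 3 it was at 10.6 and 10.3 in WT, 9.95 and 9.94 in MUT, 7.73 and 3.96 in KO, 3.57 and 4.49 in CHIR and 12.4 and 12.2 in XAV libraries. The KO and CHIR libraries of day 3 were the 4 lowest of the 16, although the region was still open in KO replicate 1.

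Tenm2 region 1 (chr11:37153853-37154190), an intronic region 81864 bp downstream of a TSS, was lost in KO cells on day 3. Its fold enrichment on day 3 was 11.8 and 8.67 in WT, 7.13 and 7.62 in MUT, 6.12 and 3.24 in KO and 8.81 and 7.65 in XAV libraries. In CHIR replicate 1 it had no deposited peak, and in replicate 2 it was at 3.36. The KO values did not overlap those of WT, MUT or XAV cells on that day. On day 2 it was less even, at 9.0 and 6.12 in WT, 6.66 and 8.54 in MUT and 10.2 and 3.71 in KO libraries, so that replicate 2 was closed in WT and in KO cells. A neighbour (chr11:37039294-37039669) was at 12.3 and 8.67 in WT day 3 libraries, absent in CHIR replicate 1 and at 3.36 in replicate 2. The one CHIR-gained Tenm2 region (chr11:36902478-36902841) was at 6.50 and 8.22 in CHIR libraries and had a deposited peak in 1 other library, at 2.74.

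Tenm3, known for matching projections in the visual system and hippocampus, had 11 regions, and 3 of them were open in all 16 libraries. One lay 57 bp downstream of a TSS, over coding sequence (chr8:48555091-48555430), with a fold enrichment between 8.12 and 11.1 over the 16 libraries. An intronic one 850 bp downstream of a TSS (chr8:48842861-48843347) was between 5.88 and 7.48. Away from the promoters, an intronic region (chr8:48458396-48458822) was higher on day 3 in WT, at 9.65 and 8.31, and in MUT cells, at 9.26 and 8.85. It was at 5.36 and 5.75 in WT day 2, 5.72 and 4.50 in KO day 3, 4.92 and 4.22 in CHIR and 3.60 and 5.80 in XAV libraries. It counted as gained between day 2 and day 3 in WT and as lost with CHIR, and not as lost in KO because KO replicate 2 was open at 4.50. That shows how the open state follows the rank of a peak in its own library rather than its fold enrichment. The Tenm3 region lost in KO on day 3 (chr8:48477586-48477946) was at 6.92 and 5.67 in WT and 5.93 and 3.60 in KO libraries, so that its fold values overlapped. Its difference of KO minus WT means was -1.53, and -0.36 without KO replicate 2.

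Tenm4 held the most regions and 15 of the 26 member regions gained with CHIR. Its 38 regions were spread from 81405 bp upstream of a TSS through the introns, and 4 were open in all 16 libraries. The number open was 13 to 15 per library on day 2 and 15 to 17 in untreated cells on day 3, and it was 24 and 26 with CHIR. The strongest (chr7:96152992-96153383), an intergenic region 18075 bp upstream of a TSS, stood between 10.2 and 15.9 in all 16 libraries. Regions that changed lay on both sides of it. The region nearest to a TSS (chr7:96210442-96210997, 24 bp upstream) was weak throughout, at 3.10 to 4.62, and was closed in WT day 3, CHIR and XAV libraries, so it counts as gained in KO with a difference of 0.48 in mean fold enrichment, or 0.29 without KO replicate 2.

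With CHIR, 15 of the 38 Tenm4 regions (39.5%) were gained against untreated WT cells on day 3, where 11.0% of all consensus regions were. By plain count, not scaled by the regions a gene holds, no other of the 17678 genes with a region had as many gained. Tenm4 is long and has 6 annotated start sites, and with its 5′ end alone as TSS it held 16 regions, 3 of them gained. Of the 15, 12 were open in both CHIR libraries and in no other, so they entered the set through that pair alone. With either CHIR library left out, 4 Tenm4 regions were gained. Tenm4 region 3 (chr7:96459025-96459326) was at 8.50 and 10.4 with CHIR and had no deposited peak in the other 14 libraries. Another 2 of the strongest (chr7:96167025-96167361, 4053 bp upstream of a TSS, and chr7:96746024-96746326) were at 9.82 and 9.43 and at 9.70 and 8.16 with CHIR, and at no more than 4.99 and 5.15 in any other library. The weakest of the 12 (chr7:96722840-96723148) was at 4.14 and 5.02 with CHIR and at 3.48 and 2.96 in WT day 3 libraries, which do not overlap. Its closed peaks of 6.12 in WT day 2 replicate 2 and 5.32 in KO day 3 replicate 1 stood above both CHIR values. A region that was open in WT day 3 replicate 1 too, and so not counted as gained (chr7:96120797-96121123), was at 12.0 and 15.2 with CHIR, against 6.58 and 4.67 in WT day 3 libraries.

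CHIR also closed 7 Tenm4 regions (18.4%), against 9.02% of all consensus regions, and 1 of them (2.63% of the 38, against 2.08%) was closed in the CHIR libraries alone. It lies 2198 bp upstream of a TSS (chr7:96168877-96169217) and was at 2.61 and 4.08 with CHIR. In the other 14 libraries it was open at 6.46 to 12.3. It is within 2 kb of the CHIR-gained region 4053 bp upstream, so adjoining stretches before the same TSS moved in opposite directions. The larger of the 2 losses with XAV at Tenm4 (chr7:96718694-96719077) was at 9.42 and 5.14 in KO, 5.87 and 4.77 in XAV and 10.4 and 12.9 in CHIR libraries, with KO and XAV values overlapping. The part of CHIR and of the change of lines in these values cannot be told apart.

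**Figure D2:**
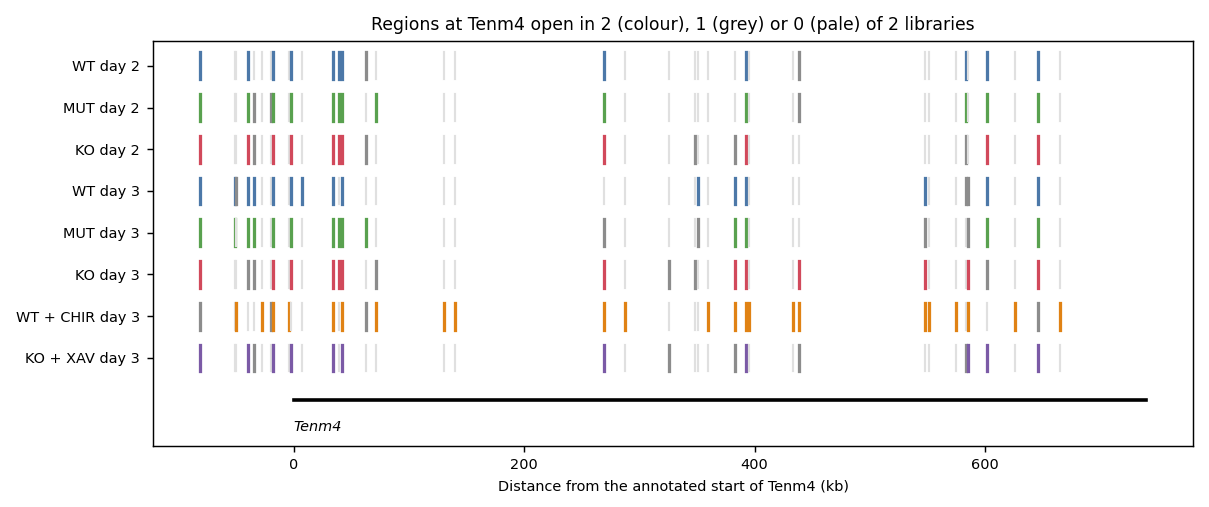
Positions of the 38 Tenm4 regions by distance in kb from the annotated gene start, 1 row per group. Colour marks regions open in both libraries, grey in 1 and pale in 0, and the black bar is the gene. The CHIR row holds marks along the gene body that no other row has.

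Between WT and KO cells on day 3, Tenm4 had 3 regions gained and 3 lost (7.89% each), against 3.92% and 4.22% of all consensus regions. Tenm4 region 1 (chr7:96440189-96440582), an intronic region that overlaps an open-in-KO DAR, was open in all 6 day 2 libraries, at 6.89 to 10.9. On day 3 it was at 4.50 and 4.67 in WT, 5.71 and 4.79 in MUT, 8.14 and 5.34 in KO, 7.21 and 8.67 in CHIR and 7.24 and 7.80 in XAV libraries. The difference of KO minus WT means was 2.15, and 0.76 without KO replicate 1. Its WT values were the lowest of the 16, and each of the 6 untreated lines was lower on day 3 than on day 2. By open state, the region stayed open in KO cells while it closed in WT cells, and XAV libraries kept it open as well. KO replicate 2 counted as open at 5.34 in the library with the lowest −log10 p at rank 50000, 6.84. MUT replicate 1, at 5.71, was open too. The second gained intronic region (chr7:96610004-96610341) was at 5.19 and 3.67 in WT and 7.40 and 4.68 in KO libraries on day 3, which overlap. Its difference of means was 1.61, and 0.25 without KO replicate 1.

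Tenm4 region 2 (chr7:96120169-96120521), 50919 bp upstream of a TSS, was open in the 4 WT and MUT libraries of day 3 and in no other. It was at 6.92 and 9.0 in WT and 10.2 and 7.62 in MUT libraries. KO replicate 1 was at 3.86 and replicate 2 had no deposited peak, CHIR libraries were at 2.60 and 5.16, and XAV replicate 1 was at 3.65 with no peak in replicate 2. Fold values of the open and the closed libraries did not overlap, but the region was chosen by that state and both come from the same peaks. In the 6 day 2 libraries it was closed, between 3.74 and 5.95 with no peak in KO replicate 2. The other 2 lost regions were less clean. One (chr7:96178015-96178328) was open in the WT day 3 libraries alone, at 6.92 and 5.67, with a closed peak of 5.18 in MUT replicate 2. One 224 bp upstream of a TSS (chr7:96522017-96522349) was at 7.49 and 5.61 in WT and 3.96 and 2.24 in KO libraries.

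**Figure D3:**
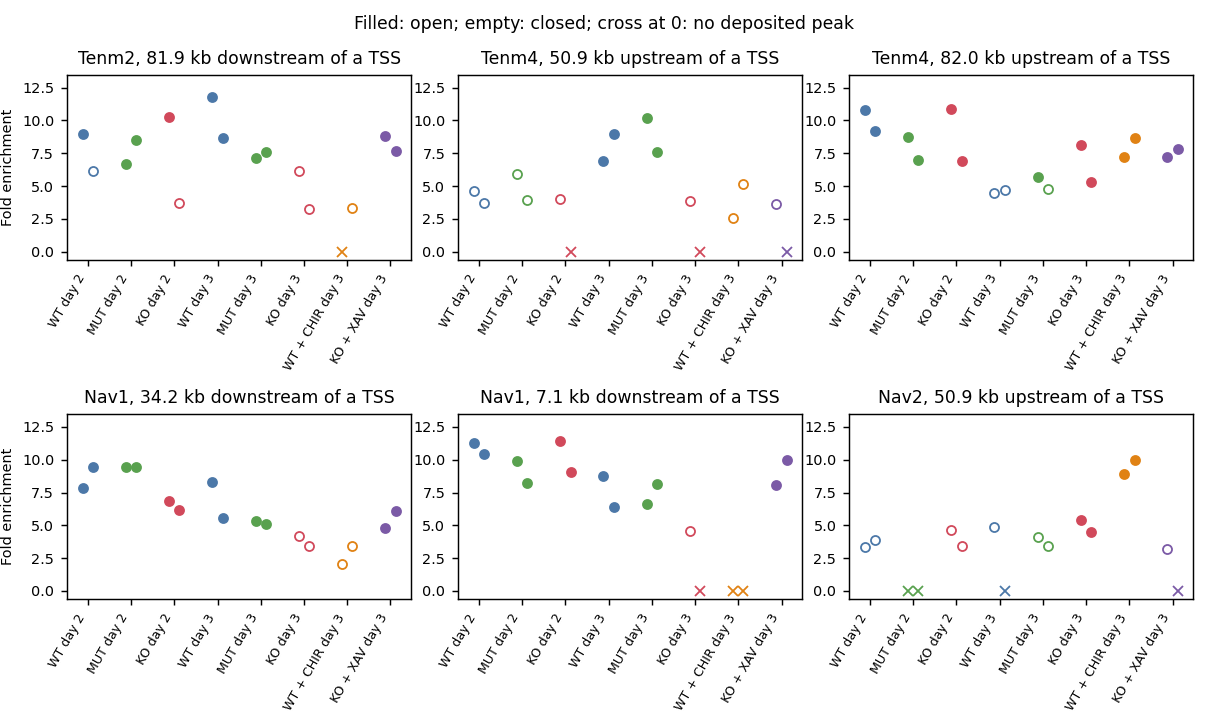
Fold enrichment in each of the 16 libraries at 6 regions, titled by gene and distance to the nearest TSS. Filled points are open, empty points closed, and a cross at 0 stands for no deposited peak and is not a measured 0. The Nav1 panels are lowest, or have no peak, in KO day 3 and CHIR libraries, and the Nav2 panel rises with CHIR to 8.90 and 9.97.

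Nav1, a navigator of microtubule ends in growing neurites, had 30 regions, and 28 of them lay in an intron of an annotated gene. Those from position 135615931 on lay upstream of Nav1 and outside it, in an intron of another annotated gene. The KO libraries of day 3 had 16 and 12 open regions. On the same day there were 19 and 21 in WT, 17 and 22 in MUT, 17 and 18 in CHIR and 19 and 19 in XAV libraries. KO cells were already lower on day 2, with 17 and 17, against 19 and 22 in WT and 20 and 22 in MUT libraries. On day 3 KO replicate 1 was within 1 region of several other libraries, and replicate 2, with 12, stood below all of them. Replicate 2 was also the library with the lowest −log10 p at rank 50000, and that part in the count was not tested. On day 2 KO cells lost 2 of the 30 Nav1 regions (6.67%) and gained 1 (3.33%), against 2.17% and 1.97% of all consensus regions. On day 3 they lost 2 others (6.67%) and gained 0, against 4.22% and 3.92%. Both day 3 losses overlap a close-in-KO DAR, which the authors chose on the same day 3 libraries, so the overlap is not independent evidence.

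Nav1 region 2 (chr1:135599983-135600327), 7136 bp downstream of a TSS, was open on day 2 in all 6 libraries at 8.19 to 11.4. On day 3 it was at 8.75 and 6.43 in WT and 6.65 and 8.15 in MUT libraries. In KO replicate 1 it was at 4.59, and KO replicate 2 and both CHIR libraries had no deposited peak. With XAV the same 2 KO lines were at 8.04 and 10.0, within the range of the WT and MUT libraries of both days. Nav1 region 1 (chr1:135551020-135551368), 34153 bp downstream of a TSS, had the same states, but its KO values were already the lowest on day 2. That day it was at 7.87 and 9.45 in WT, 9.4 in both MUT and 6.86 and 6.17 in KO libraries. On day 3 it was at 8.34 and 5.56 in WT, 5.31 and 5.11 in MUT, 4.18 and 3.40 in KO, 2.09 and 3.46 in CHIR and 4.81 and 6.07 in XAV libraries. The change between the days was -2.68 and -2.77 in KO lines. In MUT lines it was -4.13 and -4.33, and in WT lines 0.47 and -3.89. On day 3 the difference of KO minus WT means was -3.16, and -1.77 without WT replicate 1. KO and CHIR values did not overlap those of the other day 3 groups at either region. These 2 regions were closed in KO day 3 and CHIR libraries and open in all 12 others, a pattern seen at 2 of 120 members (1.67%) and at 0.418% of all consensus regions.

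Another Nav1 region turned with time. Over an exon outside the coding sequence (chr1:135523368-135523706), it was open in all 6 day 2 libraries, at 7.02 to 10.7. On day 3 it was closed in the 8 libraries without XAV, at 3.15 to 5.44 with no peak in CHIR replicate 2. With XAV it was open, at 6.62 and 8.48. The day 2 and XAV ranges overlapped, and both lay above all other libraries. Yet another (chr1:135553657-135553993) was at 5.79 and 6.59 with XAV, at 3.48 in KO replicate 1 and without a peak in KO replicate 2.

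Some Nav1 regions were steadier. The strongest (chr1:135615931-135616265), 8805 bp upstream of a TSS and outside the Nav1 gene, was open in all 16 libraries between 8.72 and 10.9. The region nearest to a TSS (chr1:135585149-135585452), 55 bp downstream and over coding sequence, was at 2.53 to 4.18 and open in 2 libraries. CHIR gained 3 of the 30 Nav1 regions (10.0%), near the 11.0% of all consensus regions. An intronic one (chr1:135518628-135518930) was at 7.47 and 8.52 with CHIR and had no deposited peak in the untreated libraries of day 3. One 4004 bp downstream of a TSS (chr1:135603138-135603444) was at 5.03 and 8.08, with a peak of 3.73 in KO day 3 replicate 1 and none in the other 13. The last (chr1:135572554-135572895) was at 6.45 and 7.35 with CHIR and 4.55 and 4.01 in WT libraries of day 3, and it had been open in 3 day 2 libraries.

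Nav2, which is induced by retinoic acid in neuroblastoma cells and bears on cranial nerve growth, had 33 regions, 31 of them intronic, and 6 were open in all 16 libraries. The strongest and nearest to a TSS (chr7:48958874-48959198), 61 bp upstream, was between 10.1 and 15.2. A second start site had a steady region 75 bp upstream (chr7:49245942-49246280), between 7.46 and 10.1. These promoter regions were open in every group.

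Nav2 region 1 (chr7:49497137-49497472) was the one Nav2 region gained in KO on day 3, and it was gained with CHIR and lost with XAV. It was at 5.40 and 4.50 in KO and 8.90 and 9.97 in CHIR libraries. WT replicate 1 was at 4.86 with no deposited peak in replicate 2, MUT libraries were at 4.08 and 3.46, and XAV replicate 1 was at 3.18 with none in replicate 2. The CHIR values stood above all others, while the KO values overlapped the WT value. A region further downstream (chr7:49504484-49504859) was at 7.64 and 7.90 with CHIR, 6.18 and 3.53 in KO and 3.80 in WT day 3 replicate 1. Its interval merges in 3 libraries with that of the adjoining region, so their values there are the same.

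CHIR gained 6 of the 33 Nav2 regions (18.2%) and closed 5 (15.2%), against 11.0% and 9.02% of all consensus regions. Of the 5, 3 (9.09% of the 33) were closed in CHIR libraries alone, against 2.08%. At chr7:49448553-49448963 replicate 1 had no deposited peak and replicate 2 was at 2.89, against 4.75 to 10.9 in the other 14 libraries. At chr7:49527400-49527933 the CHIR libraries were at 3.64 and 3.18, against 4.73 to 9.20. At chr7:49456162-49456512 they were at 5.09 and 4.84, against 5.40 to 11.2. In each case the 2 CHIR values were under all others, at the last by a small step. One gained region (chr7:49278570-49278871), at 6.62 and 8.01 with CHIR, had no deposited peak in the other 14 libraries.

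Time moved a few Nav2 regions. A region over an exon outside the coding sequence (chr7:49195724-49196151) was open in the 6 untreated libraries of day 3, at 5.61 to 9.23, and closed in the 6 of day 2, at 3.05 to 5.49. The ranges did not overlap. With CHIR it was at 3.82 and 5.41, and with XAV at 6.68 and 3.98. The Nav2 region lost in KO (chr7:48968285-48968603) was open in the WT day 3 libraries alone, at 8.80 and 5.39, and was at 3.31 and 3.35 in MUT and 4.83 and 2.52 in KO libraries. The difference of KO minus WT means was -3.42, and -1.72 without WT replicate 1. With XAV, a region 53129 bp downstream of a TSS (chr7:49012067-49012386) was at 6.99 and 6.73, against 4.19 and 2.88 in KO libraries and at most 6.46 elsewhere.

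Nav3 had a single region within the window (chr10:109920810-109921142), intronic and 79242 bp downstream of the TSS. It was open in 11 libraries and was at 4.85 to 9.13 over all 16. It was closed in both CHIR libraries, at 5.20 and 5.98, and in 1 of 2 WT libraries on each day. With 1 WT library on each side it counted as neither gained nor lost in any comparison with WT.

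**Figure D4:**
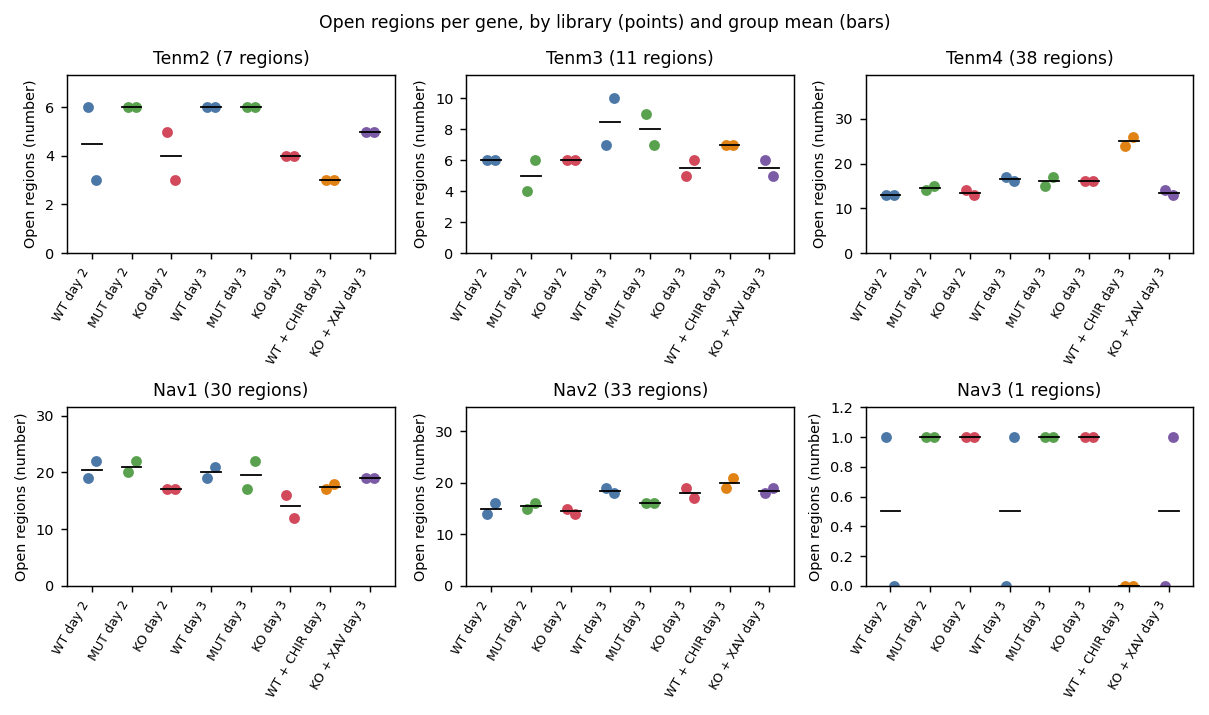
Number of open regions per gene in each library (points, 2 per group) and group mean (bars), with the number of member regions in each title. Tenm4 stands at 24 and 26 with CHIR against 13 to 17 elsewhere, and Nav1 is lowest in KO day 3, at 16 and 12.

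Set beside all consensus regions, the shares of members were furthest above the background in the CHIR comparison and in the gains of WT cells over time. Gained means open in the 2 libraries of the group named first and closed in the 2 it is set against, and lost means the opposite. In KO against WT on day 3, 4 of 120 (3.33%) were gained and 8 (6.67%) lost, against 3.92% and 4.22% of all consensus regions. In MUT against WT on day 3, 2 were gained and 2 lost (1.67% each), against 1.89% and 1.94%. On day 2, 2 (1.67%) were gained and 3 (2.50%) lost in KO, against 1.97% and 2.17%, and 3 (2.50%) were gained and 0 lost in MUT, against 1.73% and 1.61%. The counts of MUT and of day 2 are near the background. The KO counts of day 3 ask all 4 WT and KO libraries to agree. Leaving out 1 of the 4, which asks less of a call, gave 7 to 8 gained and 12 to 17 lost. The 17 came without KO replicate 1 and the 8 gained without KO replicate 2. Higher counts are built into the looser rule, and the background under it is not given.

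With CHIR, 26 of 120 (21.7%) were gained, against 11.0%, and 20 (16.7%) lost, against 9.02%. Without Tenm4, 11 of 82 (13.4%) were gained and 13 (15.9%) lost, so most of the excess of gained regions over the background lay at Tenm4. Open in both CHIR libraries and in no other were 19 (15.8%), against 6.79%, and closed in both and open in every other were 4 (3.33%), against 2.08%. Without either CHIR library 9 were gained, because a region that the CHIR pair alone holds then has 1 library and leaves the set. Tenm2 lost 4 of its 7 regions with CHIR and Tenm3 2 of 11. With XAV, 7 (5.83%) were gained against untreated KO cells and 3 (2.50%) lost, against 4.89% and 4.17%. Of the 7, 4 were Nav1 regions, 2 Nav2 and 1 Tenm2. Under the same looser rule, 16 were gained without KO replicate 1, and 7 were lost without any 1 of the 4 libraries. The KO, CHIR and XAV comparisons share libraries: KO and CHIR share the WT day 3 pair, and KO and XAV the KO day 3 pair.

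Between day 2 and day 3, WT cells gained 11 member regions (9.17%) and lost 5 (4.17%), against 3.46% and 3.96% of all consensus regions. Of the 11, 6 were at Tenm4, 3 at Nav2 and 2 at Tenm3. At Tenm4 the largest rise (chr7:96136395-96136737) was from 5.71 and 5.44 on day 2 to 10.7 and 9.67 on day 3. MUT cells gained 8 (6.67%) and lost 5 (4.17%), against 3.92% and 4.49%, and KO cells gained 5 (4.17%) and lost 5 (4.17%), against 5.16% and 6.41%. Whether the gain over time differs between genotypes was not tested.

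**Figure D5:**
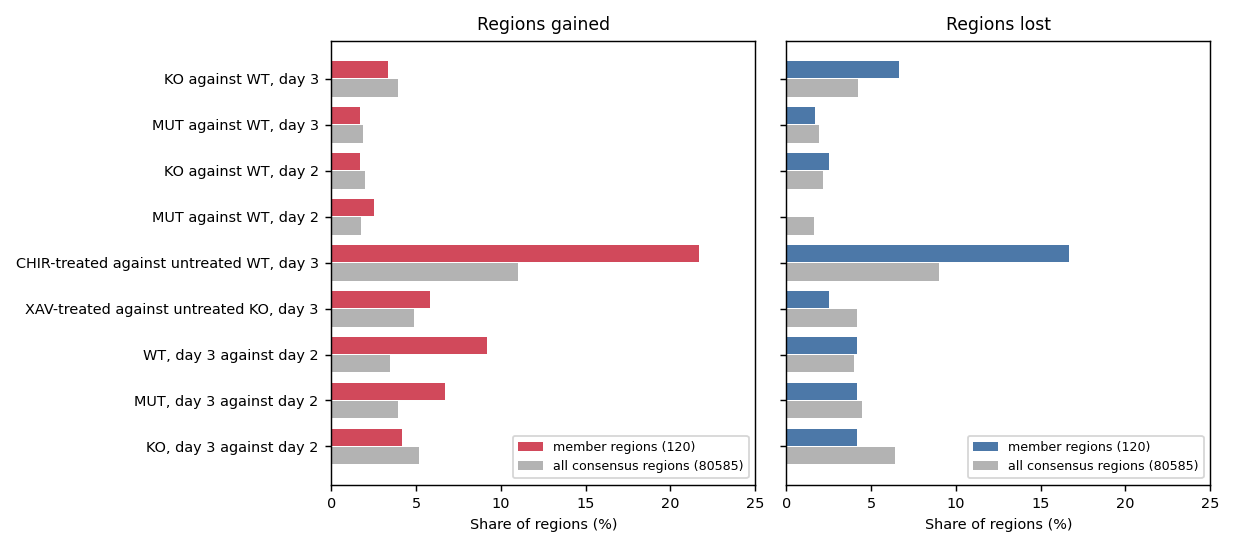
Percent of regions gained (left) and lost (right) in each of 9 comparisons, for the 120 member regions (coloured bars) and for all 80585 consensus regions (grey bars). Member shares are furthest above the grey bars in the CHIR rows, at 21.7% gained and 16.7% lost.

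The centres of the members lay in an intron of any annotated gene in 85.8%, against 41.9% of all consensus regions, and were intergenic in 10.0% against 41.6%. Over 3 kb from every annotated TSS were 75.8%, against 59.1%. The choice of long genes and of a distance window sets these positions in large part, and nothing is read from them. Median GC content was 52.8% against 53.3%. Regions of 1 gene share its locus and are not independent.

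Among letter matches in the 300 bp around the centre, TCF/LEF was in 20.0% of members, against 10.9% of all consensus regions, and TEAD in 24.2% against 18.4%. SOX was in 26.7% against 31.0%, OCT in 7.50% against 5.89%, GATA in 7.50% against 9.88%, forkhead in 2.50% against 3.85% and T-box in 0% against 1.98%. Of the 26 members gained with CHIR, 9 (34.6%) held a TCF/LEF match, and of all regions gained with CHIR 26.4% did. Of the 20 lost with CHIR, 4 (20.0%) held one, against 9.13% of all regions lost, so the members' share was above that of all regions on both sides. Among regions open in both CHIR libraries and in no other it was 31.6% of members against 28.5%. A TEAD match was in 3 of the 26 gained (11.5%), against 17.3%, and in 11 of the 20 lost (55.0%), against 30.8%. TEAD factors are the DNA-binding partners of YAP in Hippo signalling. These shares are descriptions of small counts, and no factor's binding was measured.

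The deposited DARs nearest to a member gene and within the window were 5. Close-in-KO were 3 at Nav1 and 1 at Nav2, of 920 in the authors' list, and open-in-KO was 1 at Tenm4, of 1077. The share of all consensus regions that overlap a DAR is not given, so this count is not read as high or low. Of these, 2 Nav1 regions and the Tenm4 region were described first. The other Nav1 DAR (chr1:135507848-135508148) and the Nav2 DAR (chr7:48963152-48963452) had a kept interval in 1 of the 16 libraries and so made no member region. At the Nav1 one the peaks were at 2.94 to 4.28 in the 6 day 2 libraries. On day 3 they were at 3.66 and 3.43 in WT, 2.42 and 2.52 in MUT and 2.91 and 3.24 in XAV libraries, with no deposited peak in the untreated KO and the CHIR libraries.

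Partners of the 2 families were examined as counts. Of 7 teneurin genes and partners (the teneurin Tenm1, the latrophilins Adgrl1, Adgrl2 and Adgrl3, and the FLRT proteins Flrt1, Flrt2 and Flrt3 that bind latrophilins), 6 had a region and Tenm1 had none. Their 57 regions gave 2 gained and 2 lost in KO on day 3 (3.51% each), and 10 gained (17.5%) and 5 lost (8.77%) with CHIR. Adgrl2 had 4 of the 10 and both of the KO losses. Of 8 genes of microtubule plus ends and navigator partners (Mapre1, Mapre2, Mapre3, Clip1, Clip2, Clasp1, Clasp2 and Trio), all had a region. Their 71 regions gave 1 gained (1.41%) and 3 lost (4.23%) in KO, and 5 gained (7.04%) and 6 lost (8.45%) with CHIR. Over all consensus regions these shares were 3.92% and 4.22% in KO and 11.0% and 9.02% with CHIR. By share, the gain with CHIR was above the background for the teneurin partners, and the gains in KO and with CHIR were below it for the plus-end genes. These are small counts, regions of 1 gene are not independent, and the differences from the background were not tested.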

How the data were processed

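Accessibility was measured with omni-ATAC in 16 libraries. The authors used ENCODE's pipeline for ATAC-seq with mm10, and 1 peak list per library was deposited, with 161449 to 276451 peaks. Versions of the aligner and caller: not given in the sources used here. Submitters' processing notes name HOMER 2, deepTools 3.4.3 and DiffBind 3.0.15. Deposited values are the fold enrichment at the summit (a ratio to local background, not scaled between libraries), the −log10 p, used for ranking, and the −log10 q. The lowest −log10 p in any list was 2.00. Replicate 2 of each day 2 group is marked as merged in the deposited names, with no account of what was merged. The authors' DARs compare KO with WT on day 3 by DiffBind with background normalization and were deposited as coordinates.

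Peaks sharing start and end were merged. The fold enrichment of a region was the highest of any deposited peak overlapping it, at any rank, and "no deposited peak" is not a value of 0. Positions came from GENCODE M21 on GRCm38.p6, which shares mm10 coordinates. Each group has 2 lines, and no p-value was computed. Code was tested on simulated peak lists. The members and the gene and motif lists were chosen with earlier results of these data known.

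Regions given with values were every member overlapping a DAR or gained or lost in KO on day 3. Per gene, they also were the region closest to a TSS, the one with the highest mean fold enrichment, and the gained or lost region with the largest difference of mean fold enrichment for CHIR, XAV and WT time. Regions outside this rule were chosen after their values were seen: those open or closed in CHIR libraries alone, the Tenm4 region at 12.0 and 15.2, the steady second Nav2 promoter, the Tenm3 region 850 bp from a TSS, the last XAV-gained Nav1 region given, the Nav2 region open on day 3 and the Nav2 region beside Nav2 region 1. Alternatives were other ranks, a −log10 q of 2 or more, other TSS rules, a larger overlap, library scaling and leaving out each library. Versions were Python 3.11.15, NumPy 2.4.6, pysam 0.24.0, samtools 1.23.1 and Matplotlib 3.10.9.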

Additional observations from a re-analysis of the deposited data

Results flagged for a closer look

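Fold enrichment at the Tenm2 region lost in KO cells (start 37153853) rose from day 2 to day 3 in both WT lines, by 2.77 and 2.55, and fell in both KO lines, by 4.12 and 0.47, so that the mean change was 4.96 higher in WT than in KO. The difference between the genotypes was not tested. At the Nav2 region open in WT day 3 libraries alone (start 48968285), the change was 3.75 and 1.99 in WT lines and a fall by 0.50 and 0.61 in MUT lines, so that the mean change was 3.43 higher in WT than in MUT. That difference was not tested. In KO replicate 1 the region rose by 1.27, the direction of the WT lines, and KO replicate 2 had no deposited peak on day 2. Both regions were already chosen for being open in WT day 3 libraries.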

How the results depend on the processing

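With 30000 intervals kept per library there were 72 member regions, and 11 were lost with CHIR. With 100000 there were 238, with 7 gained and 16 lost in KO day 3, 41 gained with CHIR and 5 lost with XAV. Peaks of any rank whose −log10 q was 2 or more gave 299 regions, with 18 lost in KO, 47 gained with CHIR and 23 gained with XAV. A TSS window of 500 kb gave 11 gained in KO, 40 gained with CHIR, and 13 gained and 8 lost with XAV. The 5′ end of the gene as the one TSS gave 58 regions, with 1 gained in KO, 5 gained and 11 lost with CHIR, and 1 lost with XAV. The Tenm4 count gained with CHIR then fell from 15 to 3, and it reached 23 with 100000 intervals. It was 4 with either CHIR library left out. Leaving out 1 library, which asks less of a call, gave 7 to 8 gained and 12 to 17 lost in KO, 9 to 31 gained with CHIR, 6 to 16 gained and 7 lost with XAV. The 8 or 17 in KO came without KO replicate 2 or 1, and the 9 with CHIR without either CHIR library, because regions held by that pair alone then have 1 library and leave the consensus. The other 48 counts moved by at most 1.5 times, among them 180 member regions and 12 lost in KO with the 500 kb window. Of 8 differences of mean fold enrichment between KO and WT on day 3, none changed sign. At Tenm4 96210442 the difference went from 0.48 to 0.84 with scaling by the library median. Leaving out 1 library moved 6 of the 8 by over 1.5 times. The lowest and highest were 0.25 and 2.98 at Tenm4 96610004 (1.61 with all libraries), -2.70 and -0.36 at Tenm3 48477586 (-1.53), 0.76 and 3.55 at Tenm4 96440189 (2.15), -5.13 and -1.72 at Nav2 48968285 (-3.42), -4.55 and -1.77 at Nav1 135551020 (-3.16) and 0.29 and 0.68 at Tenm4 96210442. The low value at Tenm4 96610004 and 96440189 came without KO replicate 1, those nearest 0 at Tenm3 and Tenm4 96210442 without KO replicate 2, and those at Nav2 and Nav1 without WT replicate 1. No paired analysis was run because the counts and differences come from no test, and lines that recur are given as values within each line. With XAV, 14 regions opened and 13 closed in KO1, 22 and 16 in KO15, and 7 and 3 in both. Shares of all consensus regions are not given for the other settings or for single lines. These counts are therefore not read against a background. Depth is unknown.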

Other observations

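Beyond the 100 kb window, an open-in-KO DAR whose nearest TSS is that of Nav3 (chr10:110317377-110317677, 317308 bp away) was at 10.9 and 5.40 in KO and 4.87 and 6.36 in CHIR libraries on day 3. In the other libraries with a deposited peak it was at 2.38 to 4.01. The KO and CHIR values were thus above all others. The region was outside the rule and was looked at because the authors list it.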
